A study of Homo sapiens with 21 samples.

Results

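The genes described here are 36 listed integrins, other matrix receptors and focal adhesion proteins: 9 integrin alpha chains, 6 integrin beta chains, 7 other matrix receptors and 14 adhesion adaptors, out of 23368 features in the mRNA count table. They were taken by name from a list of adhesion genes. The cells were HK-2, an immortalised line from the human kidney proximal tubule, grown in a serum-free keratinocyte medium with epidermal growth factor and pituitary extract. mRNA was sequenced from 4 libraries of cells given cyclosporine A, a calcineurin inhibitor used against graft rejection and known for kidney toxicity, at 5 µg/mL for 48 h, and from 4 libraries of cells given the vehicle, 0.1% ethanol, for 48 h. miRNAs were sequenced from 4 libraries of each treatment, at the same doses and also at 48 h. AGO2, the Argonaute protein that carries miRNAs, was mapped by PAR-CLIP in cells given the same agents for 24 h, with 100 µM 4-thiouridine and UV light of 365 nm. Of the 36 genes, 34 had enough counts to be tested.

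Integrins are receptors of an alpha and a beta chain that hold a cell to its matrix. The alpha chain largely sets the ligand, such as collagen, laminin or fibronectin, and the tail of the beta chain binds talin, kindlin and filamin inside the cell. Paxillin, vinculin, zyxin and alpha-actinin then join these receptors to actin in focal adhesions, while syndecans, dystroglycan and BCAM bind the matrix without being integrins. Tubule cells use these receptors to stay on the laminin-rich basement membrane.

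Total counts per library ran between 3965431 and 5001669 with cyclosporine A and between 4289120 and 7041604 with vehicle. Levels are given in CPM, that is, counts scaled for the total of their library. A count of 3, the limit that a count of 0 allows, was worth between 0.426 and 0.757 CPM in these libraries, which covers counting error only. The epithelial markers were all tested, and 3 of 6 were higher and 3 lower with cyclosporine A, with summed levels of 998 to 1095 CPM against 942 to 997 CPM with vehicle. Of 10 proximal tubule markers only 3 were tested, their list summed to between 134 and 152 CPM with cyclosporine A and between 177 and 217 CPM with vehicle, HNF4A and SLC22A6 had no count in any library, and LRP2 averaged 0.0355 CPM in vehicle libraries with none in cyclosporine A libraries.

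Most of the adhesion genes changed, in both directions: 10 of 14 adaptors rose, and 5 of 7 matrix receptors outside the integrin family fell. Of the 34 genes tested, 14 rose and 13 fell with an adjusted p under 0.05 (edgeR quasi-likelihood test, Benjamini-Hochberg adjustment over all 12855 genes tested), and 7 did not pass. Across all genes tested 66.9% changed, 33.3% upward and 33.5% downward, so the share among the adhesion genes, 79.4%, stands against a background in which most genes moved. Cyclosporine A and vehicle libraries did not overlap in 24 of the 34 genes, against 57.9% of all genes tested. A log2 fall of 1 or more was seen in 5 of the 34 genes, against 7.75% of all genes, and a rise of at least 1 in 0 of them, against 4.41% of all genes. The 5 were FLRT3, BCAM, ITGB8, ITGA4 and SDC2, and each is a receptor or receptor chain.

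By role, the 14 adaptors had a median log2 fold change of 0.24, the 8 alpha chains tested one of -0.06, the 5 beta chains tested one of -0.13 and the 7 other matrix receptors one of -0.34, beside -0.0022 over all genes tested. Among adaptors 10 rose, 1 fell and 3 did not pass, while among the other matrix receptors 0 rose, 5 fell and 2 did not pass. No comparison is made between the levels of different genes, because CPM is not scaled to transcript length and no transcript lengths were used here.

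**Figure D1:**
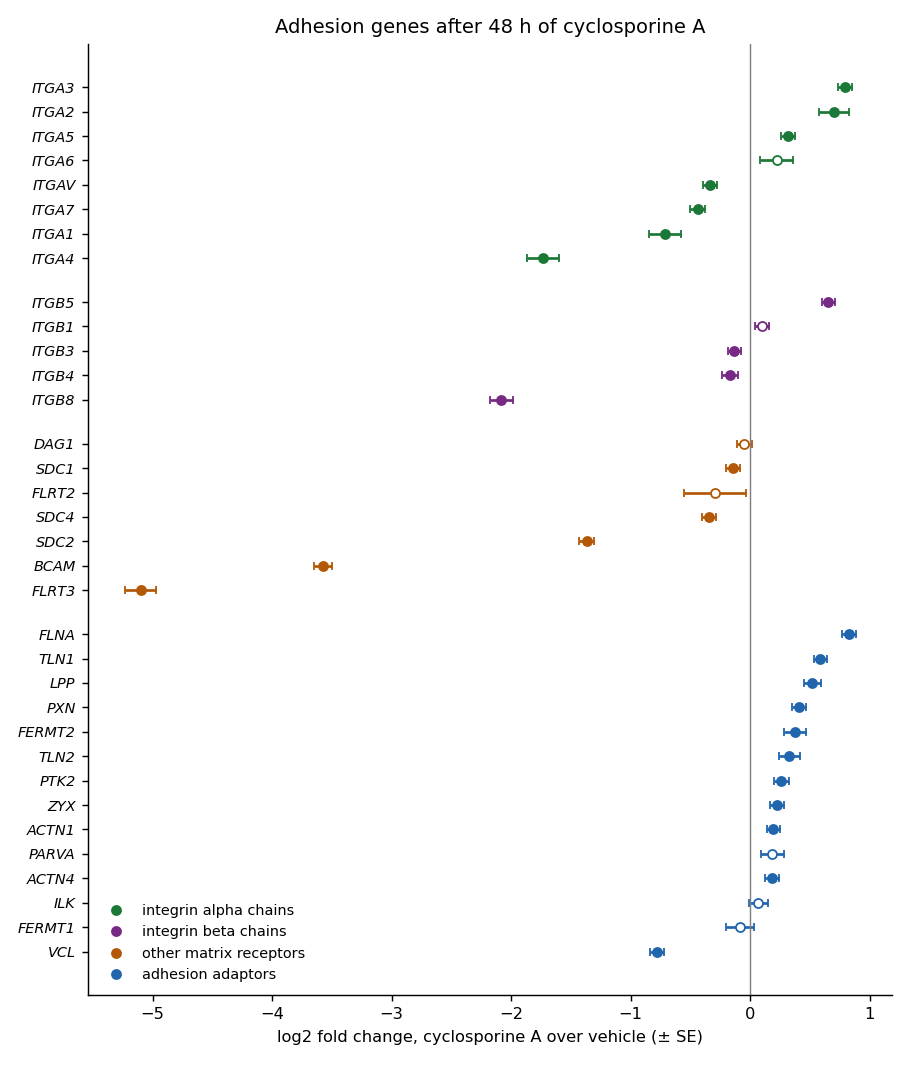
Log2 fold change, cyclosporine A over vehicle, of the 34 tested adhesion genes, grouped by role, with bars of 1 standard error; filled points had an adjusted p under 0.05 and open points did not pass. FLRT3 at -5.10 and BCAM at -3.58 lie farthest left, and 10 of 14 adaptors lie to the right of 0 with filled points.

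The collagen-binding alpha chains moved apart. ITGA1, whose integrin prefers basement membrane collagen, fell to 12.0 ± 1.91 CPM with cyclosporine A, against 19.8 ± 2.93 CPM with vehicle (SD, n = 4 each). ITGA2, whose integrin binds fibrillar collagen, rose to 22.1 ± 2.04 CPM with cyclosporine A, against 13.4 ± 1.94 CPM with vehicle. In log2 terms ITGA1 changed by -0.71 ± 0.13 (SE, edgeR adjusted p = 5.77e-06) and ITGA2 by 0.70 ± 0.12 (edgeR adjusted p = 1.55e-06). Neither gene's groups overlapped.

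Of the laminin-binding alpha chains, ITGA3, whose integrin is a main laminin receptor of epithelia, had 5961, 5747, 5597 and 5655 CPM in the cyclosporine A libraries. In the vehicle libraries ITGA3 had 3458, 3356, 3331 and 3059 CPM, so the lowest treated library stood well above the highest vehicle library. The log2 fold change of ITGA3 was 0.80 ± 0.06 (edgeR adjusted p = 6.98e-18). ITGA6, the alpha chain of hemidesmosomes, averaged 13.7 ± 1.52 CPM with cyclosporine A and 11.8 ± 1.41 CPM with vehicle, groups that overlapped, and the test was not passed (adjusted p = 0.159 in edgeR). ITGA7, a laminin-binding chain best known from muscle, fell to 107 ± 5.77 CPM with cyclosporine A, against 144 ± 6.01 CPM with vehicle, a log2 fold change of -0.44 ± 0.06 (edgeR adjusted p = 2.23e-08).

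Among the chains that bind fibronectin and related ligands, ITGA4, which also binds the cell surface protein VCAM1, fell most. ITGA4 had 8.64, 7.57, 9.20 and 9.72 CPM in the cyclosporine A libraries, against 34.6, 26.3, 26.3 and 28.2 CPM in the vehicle libraries. Its groups were far apart, with a log2 fold change of -1.73 ± 0.13 (edgeR adjusted p = 1.84e-17). ITGA5, the chain of the classical fibronectin receptor, rose to 446 ± 24.4 CPM with cyclosporine A, against 358 ± 23.0 CPM with vehicle, a log2 fold change of 0.32 ± 0.06 (edgeR adjusted p = 4.07e-06). ITGAV, which pairs with several beta chains and binds RGD-containing ligands such as vitronectin, fell to 421 ± 19.1 CPM with cyclosporine A, against 530 ± 47.9 CPM with vehicle, a log2 fold change of -0.33 ± 0.06 (edgeR adjusted p = 2.24e-06). ITGA8, the chain known from kidney development, had 0 counts in all 8 libraries.

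The beta chains divided between small and large shifts. ITGB1, the common partner of most alpha chains above, averaged 1495 ± 83.3 CPM with cyclosporine A and 1396 ± 117 CPM with vehicle and did not pass (log2 fold change 0.10 ± 0.06, edgeR adjusted p = 0.144), although it passed without cyclosporine A replicate 4 (0.14, adjusted p = 0.0353) and without vehicle replicate 1 (0.16, adjusted p = 0.0127). ITGB3, a vitronectin receptor chain, averaged 698 ± 38.2 CPM with cyclosporine A and 764 ± 50.2 CPM with vehicle, overlapping groups with a log2 fold change of -0.13 ± 0.06 (edgeR adjusted p = 0.0433). ITGB4, the hemidesmosome chain that pairs with ITGA6, averaged 110 ± 9.47 CPM with cyclosporine A and 123 ± 11.0 CPM with vehicle, also overlapping, with a log2 fold change of -0.17 ± 0.07 (edgeR adjusted p = 0.0284). These calls rest on single libraries: the adjusted p of ITGB3 lay between 0.0104 and 0.185 when 1 library was left out, missing 0.05 without cyclosporine A replicates 1, 2 or 4 or vehicle replicates 1, 2 or 3, and that of ITGB4 between 0.00467 and 0.150, missing 0.05 without cyclosporine A replicates 2 or 3 or vehicle replicates 1 or 2. DESeq2 gave adjusted p = 0.0624 for ITGB3 and 0.105 for ITGB4, and with no filter on low counts edgeR gave 0.0710 for ITGB3. Of the 34 genes tested here, 32 had the same call in the authors' deposited table and all 34 the same sign. Those that differed in the authors' deposited table were ITGB3 (-0.12, adjusted p of 0.0641) and ITGB4 (-0.15, adjusted p of 0.104).

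The beta chains that partner ITGAV went different ways. ITGB5, a vitronectin receptor chain, had 623, 626, 598 and 590 CPM in the cyclosporine A libraries, against 395, 391, 408 and 352 CPM in the vehicle libraries. ITGB8, whose integrin binds latent TGF-beta, had 14.6, 14.7, 15.6 and 17.1 CPM in the cyclosporine A libraries, against 71.1, 61.8, 68.6 and 59.6 CPM in the vehicle libraries. Every treated library was above every vehicle library for ITGB5 and below every vehicle library for ITGB8. The log2 fold change was 0.66 ± 0.06 for ITGB5 (edgeR adjusted p = 3.12e-15) and -2.08 ± 0.10 for ITGB8 (edgeR adjusted p = 1.46e-26). ITGB6, whose integrin likewise binds latent TGF-beta, was too low for the test, with 0, 1, 1 and 0 counts in the cyclosporine A libraries and 3, 6, 5 and 8 counts in the vehicle libraries. In the authors' deposited table ITGB6 had a log2 fold change of -1.39 ± 0.46 with an adjusted p of 0.00646.

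The largest falls among the 34 genes were those of FLRT3 and BCAM, receptors outside the integrin family. FLRT2 and FLRT3 are grouped here with the other matrix receptors, although the partners of FLRT3 named next are not matrix proteins. FLRT3, a leucine-rich repeat protein that binds latrophilins and Unc5 receptors, had 4.53, 1.47, 3.22 and 2.30 CPM in the cyclosporine A libraries, against 106, 106, 101 and 96.6 CPM in the vehicle libraries. Those treated values stand for 22, 6, 14 and 9 counts, above 3 in each library, with a ratio of means of 0.0281 and a log2 fold change of -5.10 ± 0.13 (edgeR adjusted p = 5.42e-39). Its relative FLRT2 had 4.53, 2.20, 2.99 and 2.56 CPM with cyclosporine A and 3.41, 5.15, 3.60 and 3.16 CPM with vehicle, groups that overlapped, and did not pass (log2 fold change -0.29 ± 0.26, edgeR adjusted p = 0.324).

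BCAM, the Lutheran blood group glycoprotein and a receptor for laminin alpha-5 chains, had 43.0, 39.3, 44.2 and 46.0 CPM in the cyclosporine A libraries, against 549, 527, 513 and 465 CPM in the vehicle libraries. All 4 treated values were far below the lowest vehicle value, with a ratio of means of 0.0840 and a log2 fold change of -3.58 ± 0.07 (edgeR adjusted p = 2.04e-44). DAG1, which encodes dystroglycan, a laminin receptor of a different build, averaged 141 ± 12.4 CPM with cyclosporine A and 146 ± 5.15 CPM with vehicle, a difference that did not pass (adjusted p = 0.501 in edgeR).

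The syndecans, heparan sulphate proteoglycans that act beside integrins, were all lower but by unequal amounts. SDC2 had 86.4, 78.2, 83.3 and 80.0 CPM in the cyclosporine A libraries, against 207, 218, 218 and 202 CPM in the vehicle libraries, a log2 fold change of -1.37 ± 0.06 (edgeR adjusted p = 7.94e-27). SDC4, the syndecan found in focal adhesions, had 476, 433, 428 and 413 CPM with cyclosporine A, against 544, 573, 589 and 512 CPM with vehicle, a log2 fold change of -0.34 ± 0.06 (edgeR adjusted p = 9.53e-07). Neither SDC2 nor SDC4 overlapped between groups. SDC1, the main syndecan of epithelia, averaged 338 ± 20.8 CPM with cyclosporine A and 374 ± 15.7 CPM with vehicle, with overlap (log2 fold change -0.15 ± 0.06, edgeR adjusted p = 0.0232). Its adjusted p lay between 0.00931 and 0.141 with 1 library left out and missed 0.05 without cyclosporine A replicates 2 or 3 or vehicle replicates 2 or 3.

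The SDC4 transcript also carried an AGO2 PAR-CLIP cluster in its 3′ UTR in both treatments, the place where most miRNA sites lie. Both clusters are given in hg19 as listed, 5′ to 3′ on the minus strand, with the 14 bases covered in both lists in capitals, because it is the one 3′ UTR place among these genes with a cluster in each list.
SDC4, cyclosporine A list, chr20:43955825-43955846: AAGGGTGGACATTAgggtagg
SDC4, vehicle list, chr20:43955832-43955855: gggattttgAAGGGTGGACATTA

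**Figure D2:**
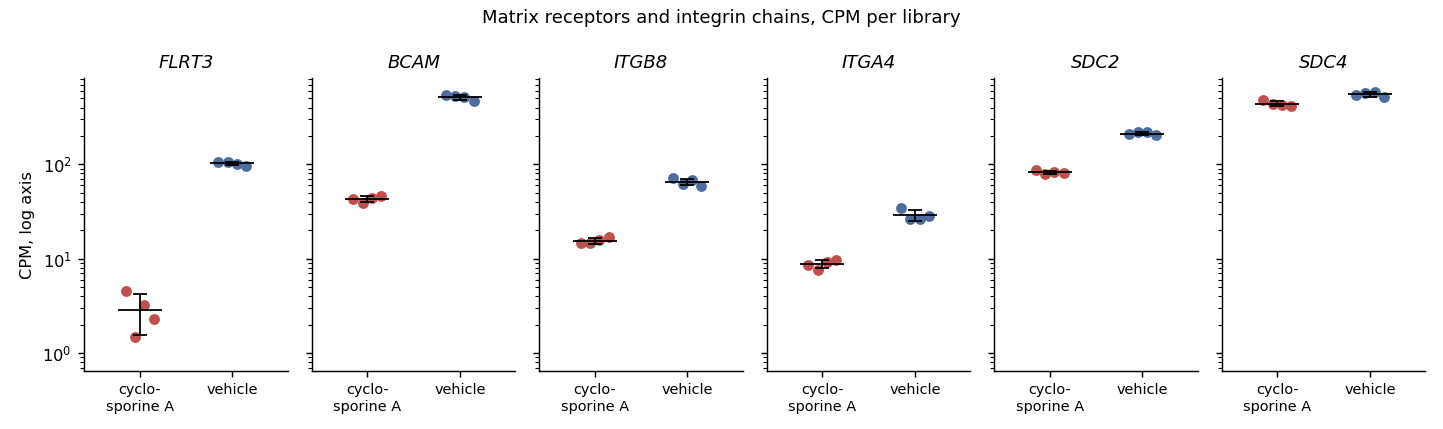
CPM per library on a log axis for 4 matrix receptors and 2 integrin chains, cyclosporine A left of vehicle; points are libraries, and lines with bars are the mean and SD of 4. FLRT3 averaged 2.88 CPM with cyclosporine A and 102 CPM with vehicle, and no gene shown had overlapping groups.

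All libraries came from a single line, HK-2, so the marker lists are read as genes and not as numbers of other cell types. In bulk RNA, fewer cells expressing a gene and less RNA per expressing cell cannot be told apart. Fibroblast markers were lower as well: 3 of 7 were tested and all 3 fell, the list summed to between 108 and 127 CPM with cyclosporine A and between 359 and 403 CPM with vehicle, and COL1A2 and PDGFRA had no count in any library. LUM averaged 63.1 CPM with cyclosporine A and 264 CPM with vehicle, and DCN averaged 48.6 CPM with cyclosporine A and 96.1 CPM with vehicle. Of the 6 epithelial markers 3 fell and 3 rose. The cadherin CDH1 averaged 1.57 CPM with cyclosporine A and 8.71 CPM with vehicle, and EPCAM and CDH2 fell as well. KRT8, KRT18 and KRT19 rose, and KRT19 averaged 536 CPM with cyclosporine A and 432 CPM with vehicle. The part of these markers in the falls of matrix receptors was not tested. Endothelial markers summed to at most 0.460 CPM in any library, and of the 5 leukocyte markers 4 had no count, with sums of 0 to 2.20 CPM with cyclosporine A and 6.24 to 8.68 CPM with vehicle. Of 3 podocyte markers 1 was tested and fell, with list sums of 82.6 to 96.3 CPM with cyclosporine A and 154 to 164 CPM with vehicle, and of 5 distal tubule markers 1 was tested and fell, with sums of 0.920 to 1.85 CPM with cyclosporine A and 2.58 to 3.84 CPM with vehicle.

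Most adaptors rose by modest amounts. TLN1, which encodes talin, the protein that switches integrins on and couples them to actin, had 595, 574, 554 and 585 CPM in the cyclosporine A libraries, against 382, 370, 379 and 404 CPM in the vehicle libraries. FLNA, the actin crosslinker filamin A that binds beta chain tails, had 5693, 5510, 5425 and 5956 CPM with cyclosporine A, against 3146, 3158, 3227 and 3195 CPM with vehicle. Both sets of libraries were well separated, with log2 fold changes of 0.59 ± 0.06 for TLN1 (edgeR adjusted p = 6.81e-14) and 0.83 ± 0.06 for FLNA (edgeR adjusted p = 8.93e-19). TLN2, the second talin, rose to 40.4 ± 3.62 CPM with cyclosporine A, against 32.3 ± 0.816 CPM with vehicle.

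An exon of TLN1 held an AGO2 cluster in both lists as well, the only other one outside introns that the lists shared among these genes. The clusters are given in hg19 on the minus strand, with the 22 shared bases in capitals.
TLN1, cyclosporine A list, chr9:35718855-35718880: ggGAACGTGGGCCAGGCCAGTGGGg
TLN1, vehicle list, chr9:35718856-35718878: GAACGTGGGCCAGGCCAGTGGG

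VCL, which encodes vinculin, the protein that strengthens the link of talin to actin, was the exception among adaptors. It had 986, 970, 1001 and 918 CPM in the cyclosporine A libraries, against 1776, 1660, 1652 and 1568 CPM in the vehicle libraries. All treated libraries were lower, with a log2 fold change of -0.78 ± 0.06 (edgeR adjusted p = 3.93e-18). Vinculin was the single adaptor of 14 that fell.

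LPP, ZYX, PXN and PTK2 also rose. LPP, a relative of zyxin, had 476, 502, 577 and 496 CPM in the cyclosporine A libraries, against 425, 346, 302 and 350 CPM in the vehicle libraries, a log2 fold change of 0.52 ± 0.07 (edgeR adjusted p = 1.07e-09). ZYX itself, a marker of adhesions under tension, rose by 0.22 ± 0.06 on the log2 scale, and PXN, the scaffold paxillin, by 0.41 ± 0.06. PTK2, the focal adhesion kinase, rose to 163 ± 8.06 CPM with cyclosporine A, against 136 ± 2.93 CPM with vehicle. None of LPP, ZYX, PXN and PTK2 overlapped between groups, and the edgeR adjusted p of the 10 adaptors that rose was 0.00361 or less.

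The alpha-actinins, which bundle actin at adhesions, both rose: ACTN1 averaged 616 ± 25.5 CPM with cyclosporine A and 539 ± 15.6 CPM with vehicle, and ACTN4 718 ± 38.8 CPM with cyclosporine A and 632 ± 20.2 CPM with vehicle. Of the kindlins, which activate integrins together with talin, FERMT2 rose to 37.7 ± 3.84 CPM with cyclosporine A, against 29.0 ± 0.960 CPM with vehicle (log2 fold change 0.37 ± 0.09, edgeR adjusted p = 3.72e-04). FERMT1, the kindlin of epithelia, averaged 17.7 ± 2.21 CPM with cyclosporine A and 18.8 ± 1.03 CPM with vehicle and did not pass (edgeR adjusted p = 0.532). ILK and PARVA, which form a complex that binds integrin tails to actin, did not pass either, with log2 fold changes of 0.07 ± 0.08 (edgeR adjusted p = 0.464) and 0.19 ± 0.10 (edgeR adjusted p = 0.0876).

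**Figure D3:**
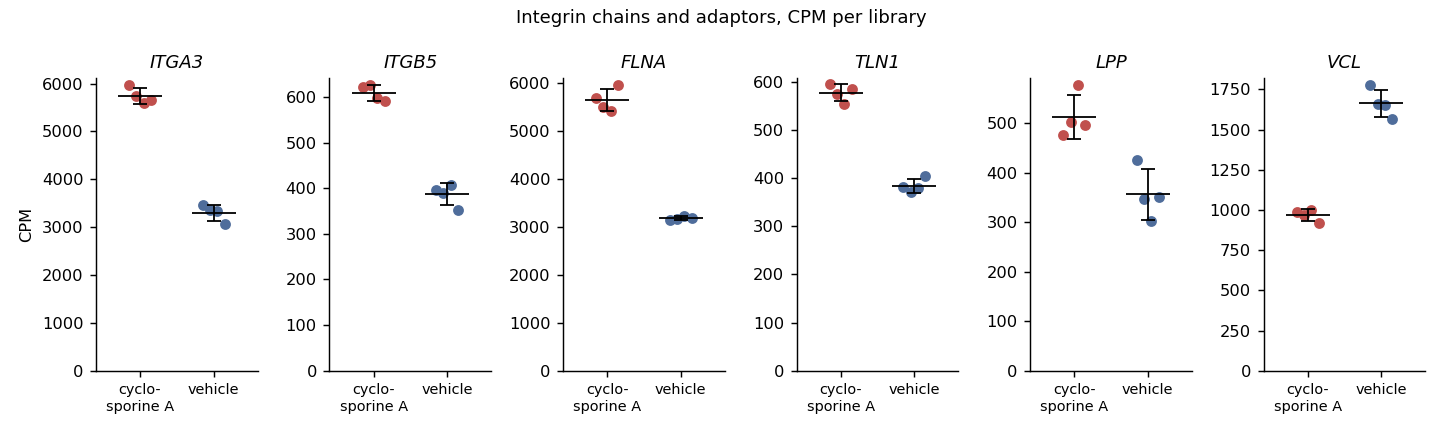
CPM per library on linear axes that start at 0 for 2 integrin chains and 4 adaptors, cyclosporine A left of vehicle; points are libraries, and lines with bars are the mean and SD of 4. ITGA3, ITGB5, FLNA, TLN1 and LPP were higher with cyclosporine A, and VCL, at 969 CPM with cyclosporine A and 1664 CPM with vehicle, was lower.

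To ask whether related genes changed by different amounts, the difference of log2 CPM between 2 genes was taken within each library for 14 pairs of relatives or partner chains and compared between cyclosporine A and vehicle by a two-sided exact permutation test over all 70 ways to divide the libraries. In 12 of 14 pairs the groups differed with the smallest p the design can give, exact p = 0.0286, and a Benjamini-Hochberg adjusted p of 0.0333 over the 14 pairs. Pairs of unrelated genes were not compared, so whether that share is particular to relatives was not tested. Of all genes taken singly, 57.9% had groups that did not overlap. FLRT2 moved by 4.75 ± 0.18 (SE) relative to FLRT3, and ITGB8 by -2.70 ± 0.08 relative to ITGB5. ITGA1 moved by -1.41 ± 0.09 relative to ITGA2, SDC2 by -1.02 ± 0.03 relative to SDC4, and ITGA5 by 0.65 ± 0.04 relative to ITGAV. So within the collagen receptor chains, the syndecans and the beta partners of ITGAV, relatives changed by unequal amounts.

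Smaller unequal changes were measured in the other pairs that passed. ITGA3 moved by 0.59 ± 0.12 relative to ITGA6, FERMT1 by -0.47 ± 0.15 relative to FERMT2, TLN2 by -0.27 ± 0.08 relative to TLN1 and ITGB4 by -0.26 ± 0.09 relative to ITGB1. ITGA5 moved by 0.22 ± 0.05 relative to its partner ITGB1, and SDC1 by 0.19 ± 0.06 relative to SDC4. ITGB6 moved by -2.12 ± 0.37 relative to ITGB5 with a prior count of 2, and by -3.20 with a prior count of 0.5, so its size depends on that setting at these low counts. Between the alpha-actinins, ACTN4 stood at -0.01 ± 0.03 relative to ACTN1 and did not pass (exact permutation p = 0.743, adjusted p = 0.743). The hemidesmosome partners ITGA6 and ITGB4 differed by 0.37 ± 0.16 and did not pass (exact permutation p = 0.114, adjusted p = 0.123), but passed without cyclosporine A replicate 4 (adjusted p = 0.0333). With 1 library left out, 0 pairs passed the adjustment without vehicle replicate 1, 2 or 3, and 9 without vehicle replicate 4. Without any 1 cyclosporine A library 11 or 12 passed. The smallest exact p with 1 library left out was again 0.0286. Pairs at that value share the same adjusted p, so they pass or miss together, depending on how many pairs reach it. FLRT2 relative to FLRT3 ranged between 4.63 and 4.86, and ITGB8 relative to ITGB5 between -2.77 and -2.66. The adjusted p of both pairs in the exact permutation test was at most 0.0571.

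**Figure D4:**
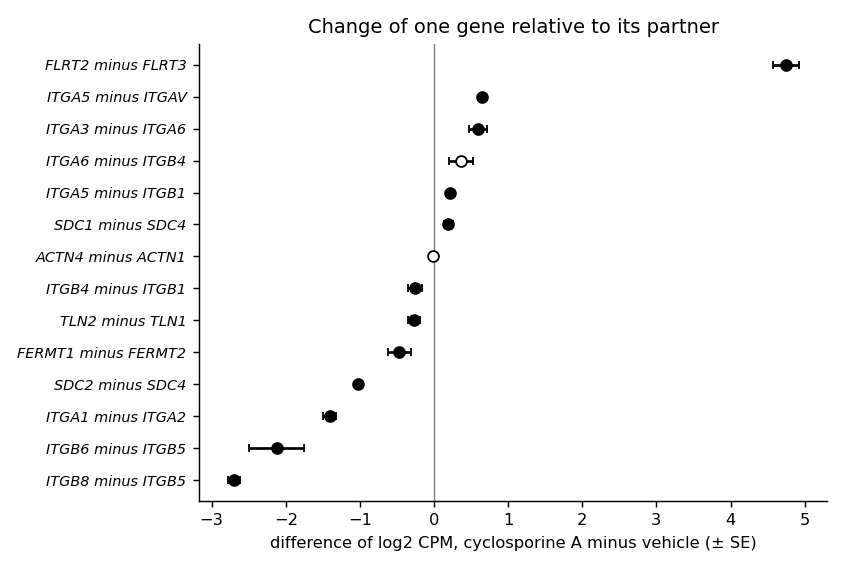
Change of one gene relative to its partner, as the difference of log2 CPM with cyclosporine A minus that with vehicle, with bars of 1 standard error, for 14 pairs; filled points had an adjusted exact p of 0.0333 and open points did not pass. FLRT2 against FLRT3 lies at 4.75 and ITGB8 against ITGB5 at -2.70, while ACTN4 against ACTN1 lies at -0.01.

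Around these 36 genes, 136 further adhesion genes in 7 lists were read, of which 115 were tested, 39 rose, 45 fell and 31 did not pass, so 73.0% changed beside the 66.9% of all genes. Of 11 other integrin chains 5 were tested. ITGB2, the leukocyte beta chain, fell to 24.0 ± 3.03 CPM with cyclosporine A, against 34.4 ± 2.04 CPM with vehicle. ITGAX, an alpha chain of the same family, averaged 35.3 ± 3.67 CPM with cyclosporine A and 29.2 ± 5.53 CPM with vehicle, overlapping groups with edgeR adjusted p = 0.0308 that missed 0.05 without cyclosporine A replicate 3 (0.141), without vehicle replicate 4 (0.205) and in DESeq2 (0.0709).

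Of 12 membrane proteins that associate with integrins, 8 fell, 1 rose and 3 did not pass, so 75% changed beside 66.9% of all genes, of which 33.5% were lower, with a median log2 fold change of -0.62. CAV1, the coat protein of caveolae, fell by 1.45 on the log2 scale, to 19.1 ± 3.01 CPM with cyclosporine A, against 52.7 ± 4.47 CPM with vehicle. The tetraspanin CD9 averaged 23.1 ± 4.21 CPM with cyclosporine A and 50.6 ± 3.49 CPM with vehicle. PLAUR, the urokinase receptor, was the member of that list that rose, to 343 ± 10.0 CPM with cyclosporine A, against 156 ± 8.44 CPM with vehicle.

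Of 25 signalling proteins of adhesions 21 rose, 1 fell and 3 did not pass, beside 33.3% higher and 33.5% lower among all genes, with a median log2 fold change of 0.33. RAPGEF1, an activator of the small GTPase Rap1, changed by 1.06 ± 0.07 on the log2 scale, and the kinase PAK2 by 1.05 ± 0.07. The member that fell was NEDD9, a docking protein related to p130Cas, at 36.4 ± 4.90 CPM with cyclosporine A and 147 ± 7.07 CPM with vehicle. Among 31 other adaptors tested, 11 rose and 12 fell, so 74.2% changed beside 66.9% of all genes. The tensins TNS1 and TENC1, which tie integrin tails to actin, were lower by log2 fold changes of -3.09 ± 0.16 and -1.62 ± 0.08.

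Among laminin chains and other ligands, 18 of which were tested, 10 were lower, 3 were higher and 5 missed the threshold. The share that changed was 72.2%, beside 66.9% of all genes. LAMA5, the laminin chain that BCAM binds, fell to 795 ± 56.5 CPM with cyclosporine A, against 2100 ± 67.5 CPM with vehicle. LAMA1, another laminin alpha chain, rose to 238 ± 23.5 CPM with cyclosporine A, against 81.6 ± 7.58 CPM with vehicle. NPNT, nephronectin, a ligand of the integrin with the ITGA8 chain, fell to 70.9 ± 1.59 CPM with cyclosporine A, against 210 ± 11.6 CPM with vehicle. The ligand genes named thus moved in both directions, as the receptor chains did.

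Of the dystroglycan complex 0 of 14 tested genes rose, 8 fell and 6 did not pass, so 57.1% changed beside 66.9% of all genes, with a median log2 fold change of -0.32. LARGE, the enzyme that builds the laminin-binding glycan on dystroglycan, averaged 17.7 ± 1.31 CPM with cyclosporine A and 54.9 ± 3.27 CPM with vehicle, while DAG1 itself did not pass. UTRN, utrophin, changed by -0.58 ± 0.07 on the log2 scale and SNTB2, a syntrophin, by -0.53 ± 0.09. Of 10 other non-integrin receptors tested, 2 rose, 4 fell and 4 did not pass, so 60% changed beside 66.9% of all genes. HMMR, a hyaluronan-binding protein, changed by -0.87 ± 0.09 on the log2 scale and SDC3, a further syndecan, by -0.68 ± 0.06. RPSA, a ribosomal protein also described as a laminin receptor, was higher by 0.61 ± 0.08 on the log2 scale, a value that is uncertain because the gene has many near-identical pseudogene copies.

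**Figure D5:**
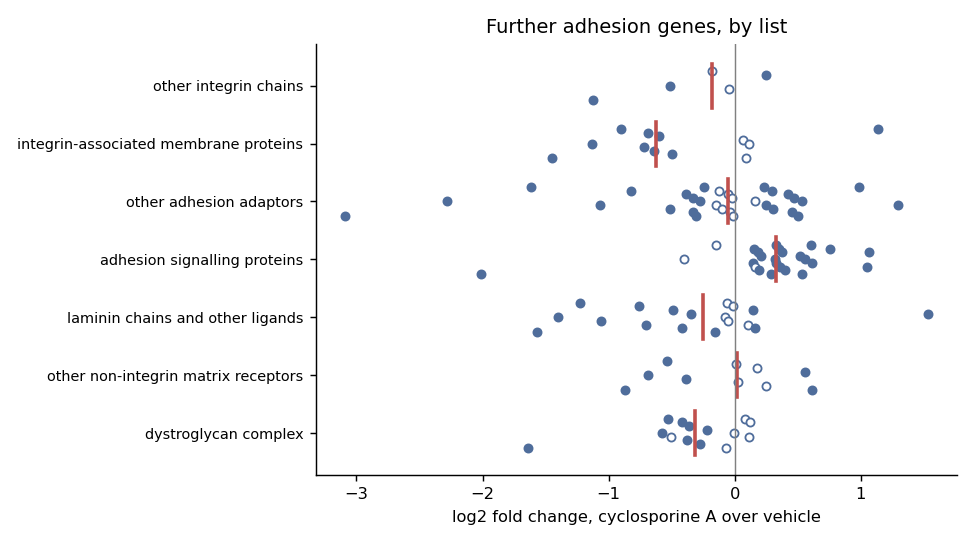
Log2 fold change, cyclosporine A over vehicle, of 115 further adhesion genes in 7 lists; filled points had an adjusted p under 0.05, open points did not pass, and red bars are list medians. The signalling list has its median at 0.33 with 21 of 25 genes higher, and the list of integrin-associated membrane proteins has its median at -0.62.

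In the AGO2 PAR-CLIP lists, given in hg19 and pooled by the authors over 2 libraries of each treatment, the 36 genes held 56 clusters in 30 genes with cyclosporine A and 76 clusters in 27 genes with vehicle. For genes with a strand in the RefSeq table, 28 of 40 clusters with cyclosporine A and 43 of 64 with vehicle lay on the strand of the gene. The rest lay on the opposite strand. Over all genes with a strand, 56.1% of clusters with cyclosporine A and 54.9% with vehicle lay on the strand of the gene. Clusters on the opposite strand cannot be read as AGO2 on the transcript of the named gene. With 1 list per treatment there is no replicate, and counts of clusters are not compared as levels. Most clusters lay in introns, 76.8% with cyclosporine A and 86.8% with vehicle, beside 80.1% and 79.8% of the clusters of all genes in the same lists. LPP held the most, 7 with cyclosporine A and 14 with vehicle, all intronic. FLRT3, BCAM, ITGA7 and SDC1 had none in either AGO2 list.

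The lists shared 23 clusters of these genes, in 17 genes, which is 41.1% of those in the cyclosporine A list and 30.3% of those in the vehicle list. The shared part was not counted over all genes, so whether these percentages are particular to adhesion genes was not tested. Of the 23, 21 were intronic, and the other two were those of SDC4 and TLN1 whose sequences are given with these genes.

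The authors' score of the SDC4 cluster was 77 in the cyclosporine A list, below that list's median of 78, and 56 in the vehicle list, above that list's median of 44. For TLN1 it was 45 with cyclosporine A and 249 with vehicle. Clusters in a 3′ UTR, where miRNAs mostly act, were few: 3 with cyclosporine A, in PXN and SDC4, and 2 with vehicle, in SDC4 and FLNA. None of the 3 cyclosporine A clusters reached its list's median score, while both vehicle clusters did. None of the 5 held the complement of a seed (miRNA positions 2 to 8) of the 28 miRNAs, in 22 seed families, that were among the 30 most abundant in these cells and had a mature sequence in RefSeq. Abundance was the mean CPM over all 8 miRNA libraries, of both treatments at 48 h, while the clusters were taken at 24 h. Seed complements of these miRNAs were found in 3.21% of the 530 clusters in 3′ UTRs of the cyclosporine A list and in 3.88% of the 748 of the vehicle list. That is 17 and 29 clusters, while the seed itself, which is no miRNA site, was found in 13 and 20. At such shares, absence from 5 clusters cannot be read as particular to these genes.

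Promoters were read from RefSeq (GRCh38.p14), 250 bases before to 50 after the start of the gene, for the 28 of 36 genes matched by symbol. The SP/KLF motif GGGCGG on either strand was present in 20 of 28 (71.4%), beside 44.6% of 27305 promoters. Those 27305 were not limited to genes expressed in these cells, as most of the 36 were, so the difference cannot be tied to adhesion genes. The AP-1 motif TGANTCA was present in 2, ITGA5 and ACTN4 (7.14%, beside 7.76%), and the TEAD motif GGAATG on either strand in 4, ITGB1, VCL, ITGA5 and FLRT3 (14.3%, beside 14.0%). The CArG box of SRF, a regulator of cytoskeletal genes, was present in 2, ITGB6 and FLNA (7.14%, beside 1.29%), and these windows are printed because they are the rarest match among the motifs searched, with the box in capitals. They read 5′ to 3′ on the strand of the gene, minus on chromosome 2 for ITGB6 and minus on the X chromosome for FLNA, and no match to the other motifs lies within either window.
ITGB6: cacctgccttCCTTATAAGGagaacaagga
FLNA: ggcaattttaCCAATTAAGGctttctcgcc
The box begins at base -60 from the start in ITGB6, which had at most 1 count per cyclosporine A library, and at base -94 in FLNA, which rose.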

How the data were processed

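The authors deposited whole-number counts per gene symbol for 8 mRNA libraries and per mature miRNA for 8 miRNA libraries, and their own log2 fold changes with p-values, of which the text uses those named as theirs. The submitters' processing notes name build hg19 and the tools TopHat, Bowtie, HTSeq, DESeq2, cutadapt and CASAVA 1.8.2. Whether strand entered the counting is not stated there, so overlapping or antisense genes cannot be told apart. Per the file headers, each PAR-CLIP list gives a position, annotation, sequence and score per cluster; the score's unit is not stated. In all 36812 cyclosporine A and 56985 vehicle clusters, end minus start equalled the sequence length, so coordinates are printed as listed and whether they count from the first base cannot be told.

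The whole mRNA table was fitted in R 4.3.3 by the quasi-likelihood test of edgeR 4.0.16 (TMM, filterByExpr, group only), called at a Benjamini-Hochberg adjusted p under 0.05; SE is the log2 fold change over the root of F. CPM were scaled by TMM. DESeq2 1.42.0, limma 3.58.1 with voom, RLE size factors, no filter on low counts, a replicate block, a log2 change of at least 1 and leaving out each library were the alternatives. Values per library were planned for genes changed by at least 1 on the log2 scale and for their partners in pairs that passed; the other genes shown so, and the printed sequences, were chosen after their values were seen, since no 3′ UTR cluster held a seed complement. Of each further list, at most 3 called genes of largest change with a mean of at least 50 counts were named; 1 such gene is not reported here. A shared cluster overlapped by at least 1 base on the same strand.

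The labels do not say that libraries of a group came from separate cultures, and the p-values therefore reflect a spread among libraries that may be technical. Libraries of 1 group differed by more than counting noise (mRNA chi-square per degree of freedom between 1.28 and 3.79, the highest for vehicle replicates 1 and 4). Vehicle replicate 4 was the lowest of its group in 17 of the 34 genes tested, and all 34 calls were the same without it. The genes and lists were chosen with earlier results of these data known. The fit was tested on simulated data. Calendar dates stand in place of a symbol for 28 mRNA features, which stayed in the fit and are not named.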

Additional observations from a re-analysis of the deposited data

Results flagged for a closer look

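In 4 genes 1 library stood apart from the 3 others of its group by Dixon's test; 68 groups of 4 were tested, and chance flags about 3.4 of them. ITGAV had 393 CPM in cyclosporine A replicate 4, against 428 to 434 CPM in the other cyclosporine A libraries. DAG1 had 123 CPM in cyclosporine A replicate 4, against 147 to 149 CPM in the others. TLN2 had 35.0 CPM in cyclosporine A replicate 4, against 41.5 to 42.6 CPM in the others. ILK had 54.5 CPM in vehicle replicate 1, against 50.2 to 50.8 CPM in the other vehicle libraries. The calls of ITGAV, TLN2, DAG1 and ILK were the same without these libraries, although the small log2 fold change of DAG1, which did not pass, changed sign without cyclosporine A replicate 4.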

How the results depend on the processing

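Of the 34 genes tested, all kept their call and direction with RLE size factors, limma voom and the replicate block; 32 did so in DESeq2 and 33 with no filter on low counts. With 1 library left out the counts ranged between 14 and 15 genes higher and between 10 and 13 lower, and for the further lists between 36 and 40 higher and between 43 and 46 lower. Asking for a log2 change of at least 1 as well left 0 of the 36 genes higher and 5 lower, and 5 and 13 of the further genes. With the replicate number as a block, 14 genes were higher and 13 lower, and 38 and 45 of the further genes. Deviations of mRNA libraries with the same number correlated at between -0.08 and 0.03, and those of miRNA libraries at between -0.05 and 0.34. With 4 libraries per group, these values cannot tell whether libraries of the same number were prepared together. DAG1 ranged between -0.0707 and 0.0152 and reversed to 0.0152 without cyclosporine A replicate 4, and ACTN4 against ACTN1 ranged between -0.0278 and 0.0067, reversing to 0.0067 without cyclosporine A replicate 3; the cause was not tested. Pairs that passed ranged between 0 and 12 with 1 library left out, and were 0 without vehicle replicate 1, 2 or 3. Pairs at the smallest exact p share the same adjusted p, so they pass or miss together. In the cyclosporine A list 2 genes had a 3′ UTR cluster, and 0 when only scores at or above the list's median counted. No miRNA had a seed match in these 3′ UTR clusters, so no miRNA was refitted under other settings. Genes of a few counts per library, such as ITGB6, limit what this depth can show.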
